A study of Mus musculus with 16 samples.

Results

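Pericytes and vascular smooth muscle cells are the mural cells that wrap brain vessels. Their transcripts were followed here in RNA-seq libraries described as sorted brain microglia, through 10 mRNAs chosen by gene symbol out of the 21878 mRNAs in the deposited tables. Pdgfrb, Rgs5, Vtn, Abcc9 and Anpep were taken as the pericyte mRNAs, and Acta2, Myh11, Tagln, Des and Cnn1 as the contractile mRNAs of smooth muscle. All 10 were found in both tables, and all 10 reached the minimum of 16 counts in total that was set for testing.

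The mice were female wild-type C57BL/6 animals, 8 weeks old. The EAE group (n = 8) was immunized with a myelin oligodendrocyte glycoprotein (MOG) peptide in complete Freund's adjuvant and received pertussis toxin, whereas the control group (n = 8) received PBS. Peptide, adjuvant and toxin therefore differed together between the groups. The peptide is given as residues 35–55 in the protocol, while the treatment field of the labels ends at residue 55 in EAE 1 and at residue 62 in EAE 8. By the protocol, microglia were gated as CD11b+/CD45int cells at the peak of disease, and 1 library was made per mouse after removal of ribosomal RNA.

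Pericytes sit within the basement membrane of capillaries and depend on PDGF-B from endothelial cells, which they sense with the receptor PDGFRβ. Smooth muscle cells surround arterioles and arteries, and their tone is set by smooth muscle actin, myosin heavy chain and actin-binding proteins such as calponin and transgelin. Neither cell type belongs to the CD11b+/CD45int gate, so their defining mRNAs also describe what else a library described as sorted microglia held.

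All 10 mRNAs were detected in every library. The libraries held 24587443 to 34184576 counts on mRNAs. The 15 microglia markers summed to 202–350 FPKM per library, against 1049–1329 FPKM for 10 neuronal markers, 907–1335 FPKM for 8 astrocyte markers and 57.0–92.7 FPKM for 12 endothelial markers. Transcripts of cells other than microglia were thus abundant in libraries of both groups. The neuronal and the astrocyte sums each exceeded the microglia sum in every library, which a pure sort of microglia would not give. How these transcripts entered the libraries was not tested. The median sum of the microglia markers was 308 FPKM in EAE mice and 239.6 FPKM in PBS-treated mice, with 13 of 15 estimates higher and Itgam and Trem2 called (edgeR adjusted p = 0.00180 and 0.0282). The groups overlapped, at 216–350 FPKM in EAE mice and 202–327 FPKM in PBS-treated mice. The microglia sums were 237, 239 and 216 FPKM in EAE 6, EAE 7 and EAE 8, beside 253, 233 and 234 FPKM in PBS 5, PBS 7 and PBS 8. The median sum of the neuronal markers was 1182 FPKM in EAE mice and 1259 FPKM in PBS-treated mice, with 9 of 10 estimates lower and Gad1 and Syt1 called (edgeR adjusted p = 0.00309 and 0.0326). In such bulk libraries, fewer cells of a type and less RNA per cell cannot be told apart. EAE 4, EAE 5 and PBS 4 were least like the other libraries of their group, with pairwise differences between libraries at a median of 14.5–21.1 times Poisson counting noise, against 6.14–11.2 times for the other 13 libraries. EAE 6, EAE 7 and EAE 8 were most alike within the EAE group and PBS 5, PBS 7 and PBS 8 within the PBS group (3.12–4.04 times). Both trios together are called the libraries most alike below, although likeness between the groups was not measured. In both groups fewer mRNAs were detected in libraries 1 to 4 than in libraries 5 to 8. The ranges were 17565–17644 and 17955–18042 in EAE mice, and 17405–17609 and 17831–17922 in PBS-treated mice. This split was not fitted as a term of its own. The labels name no batch.

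On the FPKM scale (fragments per kilobase of gene length and per library size), the levels of the 10 mRNAs had nearly the same order in every mouse. Vtn was highest, with a mean of 17.6 FPKM over the 16 libraries, followed by Rgs5 (10.7 FPKM), Pdgfrb (6.70 FPKM) and Tagln (3.58 FPKM). Each of these exceeded the next in 16 of 16 libraries, and Tagln exceeded Abcc9 (1.59 FPKM) in all 16 as well. Abcc9 and Acta2 (1.32 FPKM) did not differ beyond their spread, as Abcc9 was the higher of the pair in 10 of 16 libraries. Acta2 exceeded Anpep (0.782 FPKM) in 16 libraries, and Anpep exceeded Cnn1 (0.547 FPKM) in 13. Cnn1, Des (0.515 FPKM) and Myh11 (0.496 FPKM) could not be ordered, since Cnn1 exceeded Des in 7 libraries and Des exceeded Myh11 in 9.

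**Figure D1:**
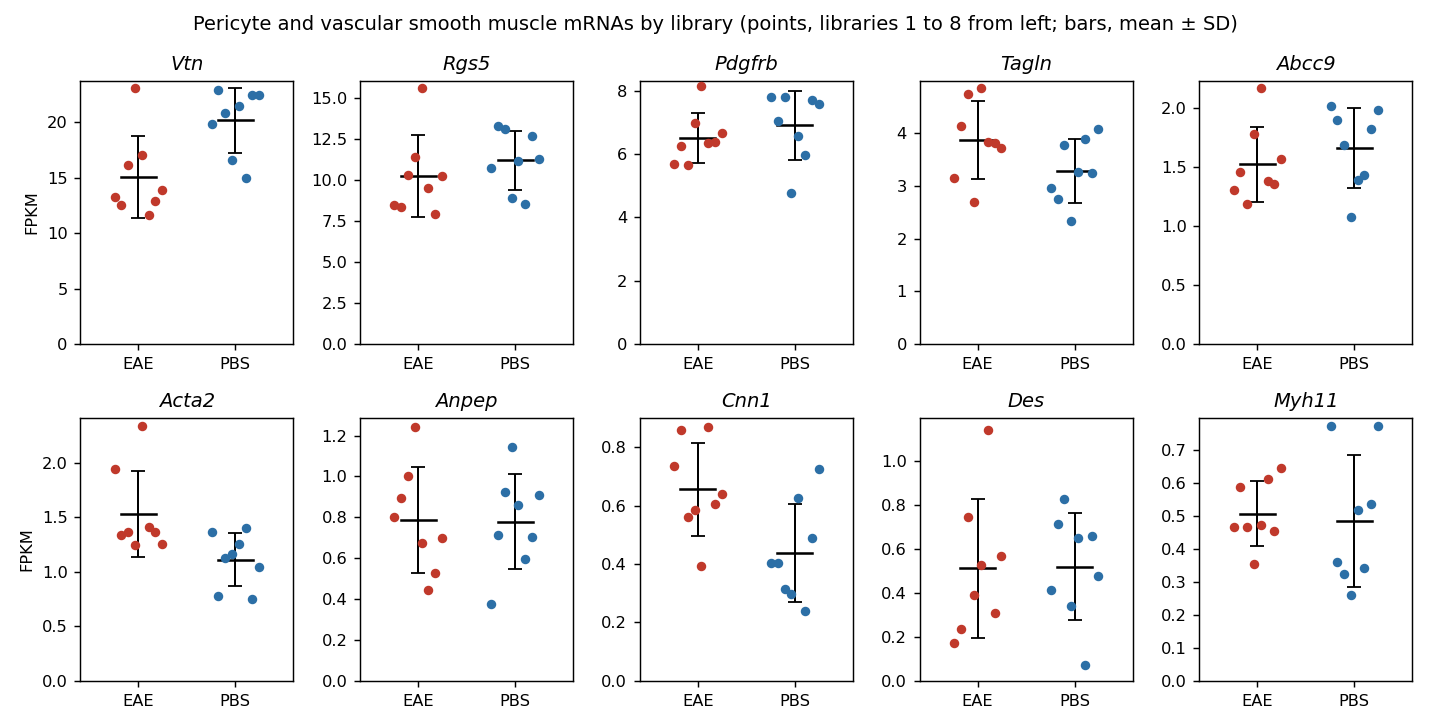
FPKM (linear axes from 0) of the 10 mRNAs in the 8 EAE and 8 PBS libraries, ordered by mean level; points are libraries and bars are the mean ± SD. The groups overlap for every mRNA, and 7 of 8 EAE libraries lie below the PBS median for Vtn.

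Differential expression between EAE mice and PBS-treated mice was tested over all 17885 mRNAs with edgeR's quasi-likelihood test, which addresses whether mural transcripts changed with disease. Of the 10 mRNAs, Vtn alone passed an adjusted p (Benjamini-Hochberg) under 0.05, and it was lower in EAE mice. The background was 2.42% of all mRNAs tested in either direction and 1.76% lower in EAE mice. None of the 10 was a DEmRNA, which also requires a |log2FC| over 1, a class that held 0.117% of all mRNAs. At an unadjusted p under 0.05 there were 3 of 10, namely Vtn, Acta2 and Cnn1, against 17.4% of all mRNAs. DESeq2 likewise gave 1 of the 10 at an adjusted p under 0.05 (4.63% of all mRNAs) and 0 DEmRNAs. edgeR gave 1 of the 10 with a term for the libraries most alike (4.29% of all mRNAs), 1 with the replicate number as a block (2.89%) and 0 with upper-quartile factors (1.78%). Vtn was also not called with robust estimation in edgeR or with limma on log2(FPKM + 0.1) or log2(FPKM + 1), with adjusted p-values of 0.05004, 0.109 and 0.0816. The median log2FC was −0.17 over the 5 pericyte mRNAs and 0.19 over the 5 contractile mRNAs, beside 0.0092 over all mRNAs tested.

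**Figure D2:**
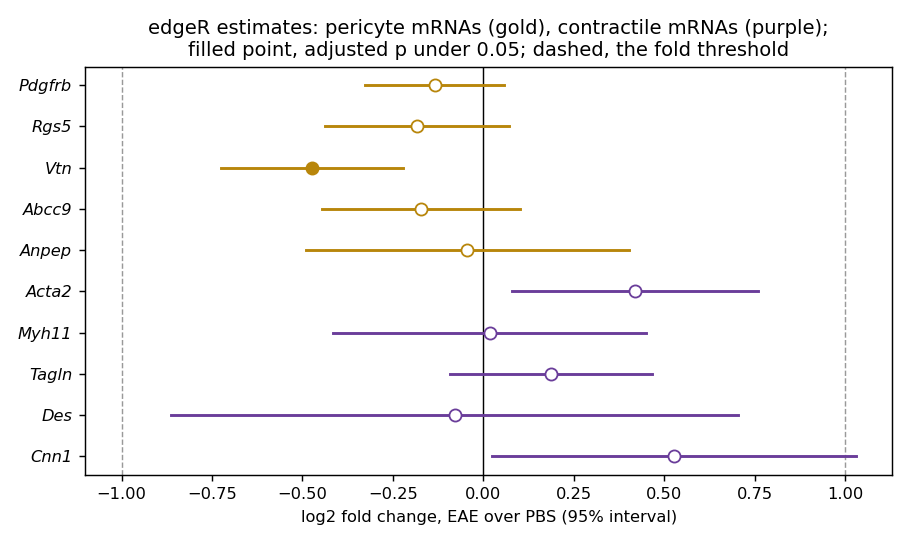
log2 fold change of EAE over PBS from edgeR with its 95% interval for the 5 pericyte mRNAs (gold) and the 5 contractile mRNAs (purple). Vtn, at −0.47, is the single filled point (adjusted p under 0.05), and no point estimate reaches the dashed fold threshold of 1.

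Vtn encodes vitronectin, an adhesive glycoprotein of plasma and of the vessel wall that brain pericytes express strongly. Its FPKM ranged from 11.6 in EAE 6 to 23.1 in EAE 4, with a median of 13.5, in EAE mice. In PBS-treated mice it ranged from 15.0 in PBS 6 to 22.9 in PBS 2, with a median of 21.1. The groups overlapped, but 5 of 8 EAE libraries lay below the lowest PBS library and 8 of 8 PBS libraries lay above the EAE median. The mean was 15.1 ± 3.73 FPKM (SD, n = 8) in EAE mice and 20.2 ± 2.91 FPKM in PBS-treated mice.

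The log2FC of Vtn was −0.47 (SE 0.12, edgeR adjusted p = 0.0400), or 0.720-fold with a 95% interval of 0.605–0.857. A two-sided exact permutation test on mean FPKM gave p = 0.0126 for Vtn, and 0.173 when adjusted over all 19671 mRNAs with counts. At the same level 0 of all mRNAs passed that adjustment, against 16.9% at an unadjusted p under 0.05. The direction of Vtn held in all 29 alternative settings. Its adjusted p in edgeR rose to between 0.0528 and 0.0933 when any 1 of EAE 1, EAE 2, EAE 3, EAE 6, EAE 7, EAE 8, PBS 1, PBS 2, PBS 3, PBS 5, PBS 7 or PBS 8 was left out, and was 0.00154 without EAE 4, in which Vtn was highest.

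Vtn was also read within sets of libraries. In the libraries most alike, the FPKM of Vtn was 11.6, 12.9 and 13.9 in EAE 6, EAE 7 and EAE 8 and 21.4, 22.4 and 22.4 in PBS 5, PBS 7 and PBS 8. Within these 6 libraries the log2FC was −0.82, and Vtn, Rgs5 and Pdgfrb had an adjusted p under 0.05 in edgeR, as did 24.1% of all mRNAs. These 6 libraries had been chosen for their small differences within each group, the same spread that the test uses, so these low p-values are partly built in and are given as a description. Within the other 5 libraries of each group the log2FC of Vtn was −0.28 (adjusted p = 0.580 in edgeR), where 0.0745% of all mRNAs passed. The difference between these log2FC values did not pass the edgeR interaction test (unadjusted p = 0.0254, adjusted p = 0.563).

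Vtn lies on chromosome 11 from 78499091 to 78502324 on GRCm38, on the plus strand, and no other annotated gene overlaps it. Its nearest neighbours, Sebox at 1123 bases and Sarm1 at 1337 bases, had log2FC values of 0.054 (SE 0.31, adjusted p = 0.953 in edgeR) and 0.0031 (SE 0.072, adjusted p = 0.991 in edgeR). None of the 1714 distinct 31-base words in the Vtn transcripts occurs in transcripts of another protein-coding gene. Several marker lists had lower median sums in EAE mice too. The 6 choroid plexus mRNAs summed to 75.7–131 FPKM against 94.7–239 FPKM, with 4 of 6 estimates lower. The neuronal markers had 9 of 10 estimates lower, as given above. Median sums were 1008 and 1103 FPKM for the astrocyte markers and 962 and 1069.9 FPKM for the 8 oligodendrocyte markers, each with 7 of 8 estimates lower. The 12 endothelial markers had a median of 74.7 FPKM in EAE mice and 75.9 FPKM in PBS-treated mice, with 0 of 12 called and 0 at an unadjusted p under 0.05 in edgeR. The part of these cell types and of the libraries that stand apart in the Vtn result was not tested.

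The other pericyte mRNAs had estimates below 0 with intervals that included 0. Pdgfrb, the receptor for endothelial PDGF-B, ranged from 5.64 to 8.13 FPKM in EAE mice (median 6.36) and from 4.75 to 7.80 FPKM in PBS-treated mice (median 7.31). EAE 5 was the highest library of all and PBS 4 the lowest, so the groups overlapped over nearly their whole range. Its log2FC was −0.14 (SE 0.093, edgeR adjusted p = 0.486), with a 95% interval of 0.796-fold to 1.04-fold.

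Rgs5, which ends signalling by heterotrimeric G proteins and is among the most abundant pericyte transcripts, ranged from 7.92 to 15.7 FPKM in EAE mice (median 9.88) and from 8.53 to 13.3 FPKM in PBS-treated mice (median 11.2). EAE 5, at 15.7 FPKM, stood above all other libraries, and 3 EAE libraries lay below the lowest PBS library. The log2FC of Rgs5 was −0.18 (SE 0.12, edgeR adjusted p = 0.470).

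Abcc9, the sulfonylurea receptor subunit of the vascular KATP channel, ranged from 1.18 to 2.17 FPKM in EAE mice (median 1.42) and from 1.07 to 2.02 FPKM in PBS-treated mice (median 1.76). As for Pdgfrb, EAE 5 was highest and PBS 4 lowest. Its log2FC was −0.17 (SE 0.13, edgeR adjusted p = 0.538), and an antisense gene covers 1.89% of its exon bases.

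Anpep, the aminopeptidase CD13, which pericytes share with myeloid cells, ranged from 0.443 to 1.24 FPKM in EAE mice and from 0.376 to 1.14 FPKM in PBS-treated mice. The medians were 0.750 and 0.786 FPKM, and 4 of 8 EAE libraries lay on each side of the PBS median. The log2FC was −0.044 (SE 0.22, edgeR adjusted p = 0.942), with a 95% interval from 0.711-fold to 1.32-fold. Its sign turned with the libraries used, from −0.59 within the 6 libraries most alike to 0.22 within the other 5 libraries of each group. The 8 monocyte and macrophage markers summed to 19.0–29.4 FPKM in EAE mice and 15.0–24.9 FPKM in PBS-treated mice.

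When EAE 4, EAE 5 and PBS 4 were left out, a choice made after the data were seen, Pdgfrb, Rgs5, Vtn and Abcc9 all had an adjusted p under 0.05 in edgeR. Their log2FC values were then −0.28, −0.40, −0.69 and −0.40. In the same setting 15.4% of all mRNAs passed, so the 4 of 10 are read beside a background that had risen from 2.42%. The libraries left out were those least like their group, so this choice also lowers the spread that the test uses. Leaving out EAE 5 alone brought the adjusted p of Rgs5 to 0.0920, and in none of the 16 fits without 1 library was Pdgfrb, Rgs5 or Abcc9 called.

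Among the contractile mRNAs, Acta2 and Cnn1 had the largest estimates, and both missed the adjusted threshold. Acta2 encodes smooth muscle α-actin. It ranged from 1.25 to 2.33 FPKM in EAE mice (median 1.36) and from 0.754 to 1.41 FPKM in PBS-treated mice (median 1.15). All 8 EAE libraries lay above the PBS median, and 3 lay above the highest PBS library, with EAE 5 (2.33 FPKM) and EAE 1 (1.95 FPKM) highest. The log2FC was 0.42 (SE 0.16, edgeR adjusted p = 0.183), with a 95% interval from 1.06-fold to 1.69-fold. In the exact permutation test on FPKM, which carries no TMM scaling, p was 0.0104 (two-sided), and 0.163 when adjusted over all mRNAs with counts.

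Acta2 belongs to a family of near-identical actin proteins, so its coding sequence is set beside those of Actg2, Actc1 and Acta1 to show how far reads of these genes could be told apart. The last 90 coding bases, stop codon included, are given 5′ to 3′ from GENCODE M21 transcripts (GRCm38), and capitals mark bases that differ from Acta2:
Acta2: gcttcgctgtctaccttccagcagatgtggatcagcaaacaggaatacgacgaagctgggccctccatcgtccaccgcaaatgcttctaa
Actg2: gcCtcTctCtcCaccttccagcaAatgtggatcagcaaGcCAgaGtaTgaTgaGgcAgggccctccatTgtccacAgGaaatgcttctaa
Actc1: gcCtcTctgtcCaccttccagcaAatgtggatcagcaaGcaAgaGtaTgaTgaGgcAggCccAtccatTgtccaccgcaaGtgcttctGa
Acta1: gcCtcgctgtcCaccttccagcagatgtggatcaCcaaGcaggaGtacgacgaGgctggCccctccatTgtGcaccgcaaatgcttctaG
In this stretch Actg2 and Actc1 each differ from Acta2 at 16 bases and Acta1 at 10. Over the last 1000 coding bases, identity to Acta2 was 84.4% for Actg2, 83.0% for Actc1 and 86.3% for Acta1. Of the 2165 distinct 31-base words in Acta2 transcripts, 1.20% also occur in other protein-coding genes. Such words were found in 3 other genes, and Actg1, which is not among the sequences shown, holds all of them.

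The other actins had log2FC values between −0.031 and 0.68, and 0 of 5 had an adjusted or an unadjusted p under 0.05 in edgeR. Actg1, the most similar in shared words, is a cytoskeletal actin of all cells. Its mean was 143 FPKM in EAE mice and 141 FPKM in PBS-treated mice. The log2FC of Actg1 was −0.031 (SE 0.050, edgeR adjusted p = 0.800). Actb stood at 618 and 587 FPKM (log2FC 0.023), and Actc1, the cardiac actin, at 0.483 and 0.291 FPKM (log2FC 0.68, SE 0.48, edgeR adjusted p = 0.496).

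Cnn1, calponin, which binds actin in differentiated smooth muscle, ranged from 0.393 to 0.869 FPKM in EAE mice (median 0.623) and from 0.239 to 0.725 FPKM in PBS-treated mice (median 0.403). EAE 5 was the lowest EAE library, whereas it was the highest for Acta2 and Tagln. Of the EAE libraries, 7 of 8 lay above the PBS median. The log2FC of Cnn1 was 0.53 (SE 0.24, edgeR adjusted p = 0.263) from 25–48 counts in EAE and 14–47 counts in PBS libraries. The exact permutation p on FPKM was 0.0207 (two-sided), and 0.209 when adjusted over all mRNAs with counts.

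Tagln, transgelin, another actin-binding protein, ranged from 2.69 to 4.86 FPKM in EAE mice (median 3.82) and from 2.33 to 4.07 FPKM in PBS-treated mice (median 3.25). EAE 4 and PBS 4 were the lowest libraries of their groups. The log2FC was 0.19 (SE 0.13, edgeR adjusted p = 0.508). An antisense gene covers 62.4% of the exon bases of Tagln and Pcsk7, on the opposite strand, 5.43%. The strand setting of the counting is not given in the sources used here, so reads of these genes may be included.

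Myh11, the smooth muscle myosin heavy chain, ranged from 0.355 to 0.646 FPKM in EAE mice and from 0.259 to 0.772 FPKM in PBS-treated mice, so that every EAE library lay within the PBS range. Its log2FC was 0.017 (SE 0.21, edgeR adjusted p = 0.978), with a 95% interval from 0.750-fold to 1.37-fold.

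Des encodes desmin, the intermediate filament of muscle cells, which pericytes share. It ranged from 0.172 FPKM in EAE 1 to 1.14 FPKM in EAE 6, and from 0.0703 FPKM in PBS 6 to 0.828 FPKM in PBS 3. This spread was the widest of the 10 mRNAs, at 6.62-fold among EAE mice and 11.8-fold among PBS-treated mice. The coefficient of variation of Des was 61.9% in EAE mice, where counting alone would give 15.5%. The log2FC of −0.080 (SE 0.38, edgeR adjusted p = 0.941) had a 95% interval from 0.550-fold to 1.63-fold, and these data do not narrow the change further. The coefficient of variation in EAE mice was 12.2% for Pdgfrb and 18.9–33.0% for the remaining 8 mRNAs.

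**Figure D3:**
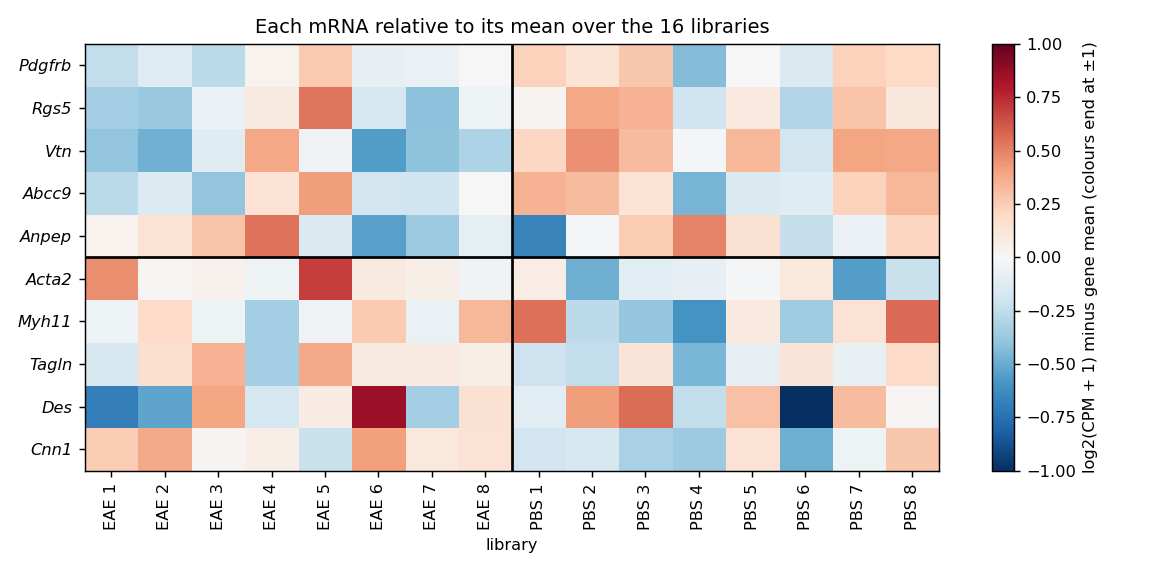
log2(CPM + 1) of each mRNA minus its mean over the 16 libraries (columns), with red above and blue below the mean and colours ending at ±1. Pdgfrb, Rgs5 and Abcc9 are red in EAE 5 and Pdgfrb and Abcc9 darkest blue in PBS 4, while Des is darkest blue in PBS 6.

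Next, it was asked whether the mRNAs varied together from mouse to mouse within a group. Correlations over the 16 libraries were computed for the 45 pairs after the group means were removed, with permutation within groups and adjustment over the 45 pairs. Pdgfrb and Abcc9 were the closest pair, with a Pearson's r of 0.93 and a Spearman's rho of 0.86 (permutation p = 3e-05 and 0.00019, adjusted p = 0.00135 and 0.00427). Without PBS 4 and EAE 5 their r was 0.86, and it was 0.95 both within the 6 libraries most alike and within the other 10.

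Rgs5 was correlated with Pdgfrb (r 0.74, rho 0.74, permutation p = 0.00148 and 0.00201, adjusted p = 0.0333 and 0.0302) and with Vtn (r 0.74, rho 0.85, permutation p = 0.00393 and 9e-05, adjusted p = 0.0442 and 0.00405). Without the 2 libraries farthest from the median these r values were 0.66 and 0.74. Rgs5 and Abcc9 passed by Pearson's r of 0.72 (permutation p = 0.0028, adjusted p = 0.0420) and not by rho of 0.62 (permutation p = 0.0158, adjusted p = 0.102). These 4 were among the 10 pairs of pericyte mRNAs. Of the 10 pairs of contractile mRNAs 0 passed, with Myh11 and Cnn1 closest (r 0.65, rho 0.65, permutation p = 0.0127 and 0.0133, adjusted p = 0.114 and 0.0997), and of the 25 pairs across both sets 0 passed. All points share the composition of their library.

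The mean of the centred log2 values over the contractile mRNAs minus that over the pericyte mRNAs ranged from −0.41 in EAE 4 to 0.65 in EAE 6, with a median of 0.23, in EAE mice. In PBS-treated mice it ranged from −0.41 in PBS 2 to 0.0032 in PBS 5, with a median of −0.18. This is a description of the 10 mRNAs, which were chosen with earlier results known.

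Among all other mRNAs with a mean of at least 50 counts, the 5 whose log2(CPM + 1) over the 16 libraries was most like the mean of the pericyte mRNAs were Tfcp2l1 (Pearson's r 0.93, Spearman's rho 0.92), Pcdhgc3 (0.89 and 0.85), Smad5 (0.89 and 0.88), Vwa1 (0.88 and 0.85) and Nfia (0.87 and 0.82). Smad5 relays bone morphogenetic protein signals, and Nfia is a transcription factor of glial cells. For the contractile mRNAs they were Mcl1 (r 0.87, rho 0.84), Nup98 (0.83 and 0.86), Litaf (0.83 and 0.74), Nln (0.83 and 0.78) and Ptbp1 (0.83 and 0.69). These are the highest of 13944 correlations over 16 libraries, so no p is given, and none of the 10 had an adjusted p under 0.05 between the groups in edgeR.

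Genes related to the 10 mRNAs by function, family or cell type were then examined in 11 lists, which include relatives expressed by other cells. Of 104 further genes, 103 were tested, and edgeR gave 5 that were higher in EAE mice, 0 that were lower and 98 that did not pass. This is 4.85% of those tested, beside 2.42% of all mRNAs in either direction and 0.66% higher in EAE mice, and the median log2FC was 0.034. The number called fell to between 0 and 3 without any 1 of EAE 1, EAE 2, EAE 3, EAE 6, EAE 7, EAE 8, PBS 1, PBS 2, PBS 3, PBS 5 or PBS 6, and rose to 10 without EAE 4 and to 9 without EAE 5. The number of all mRNAs called, 433 with all libraries, was 144 to 385 in the former fits other than that without PBS 6, where it was 495, and 1317 and 901 in the latter.

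**Figure D4:**
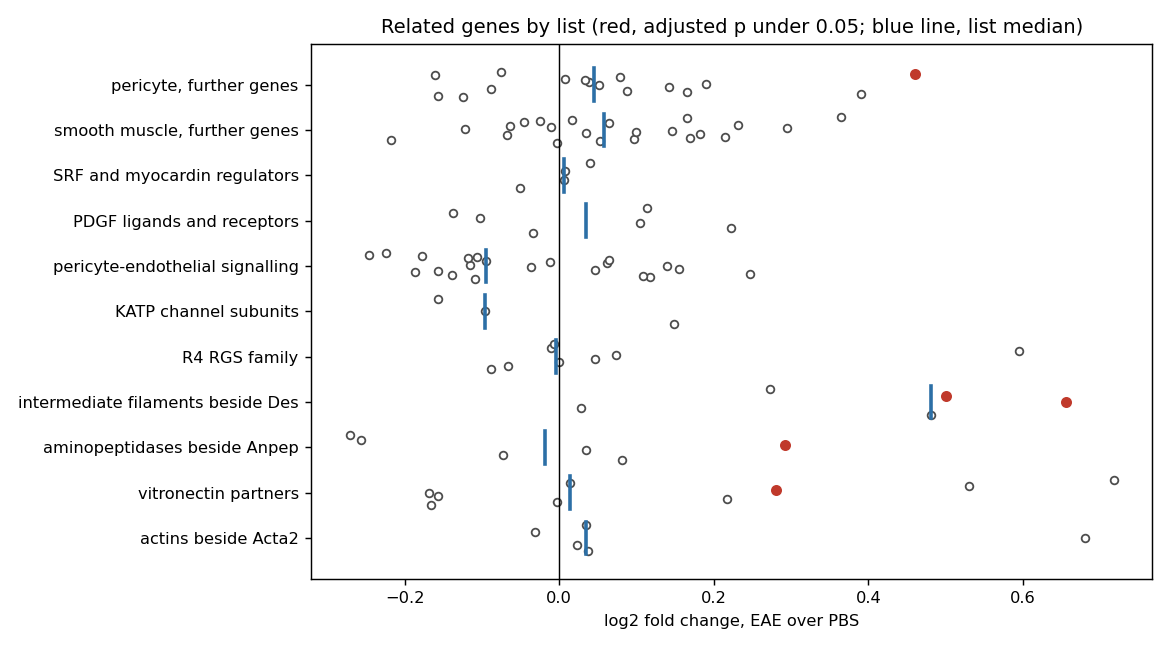
log2 fold change of EAE over PBS (edgeR) for the genes of 11 lists related to the 10 mRNAs; each point is a gene, red marks an adjusted p under 0.05 and blue lines are list medians. The 5 red points all lie to the right of 0, and 2 of them are among the intermediate filaments.

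Of 16 other pericyte genes, 1 rose and 15 did not pass, with a median log2FC of 0.045. Unlike the 5 pericyte mRNAs above, 11 had estimates above 0 and 5 below. Their median sum was 41.5 FPKM in EAE mice and 39.6 FPKM in PBS-treated mice. S1pr3, a receptor for sphingosine 1-phosphate on mural cells, had 3.44 FPKM in EAE mice and 2.41 FPKM in PBS-treated mice (log2FC 0.46, SE 0.12, edgeR adjusted p = 0.0480). S1pr3 was not called without the filter on low counts, with limma on log2(FPKM + 0.1) or within either set of libraries. Among the fits without 1 library, it was called only without EAE 4, EAE 5, PBS 7 or PBS 8. Cspg4, the proteoglycan NG2 of pericytes and oligodendrocyte precursors, had 6.06 and 6.38 FPKM (log2FC −0.12, adjusted p = 0.551 in edgeR). Mcam had a log2FC of 0.14, Zic1 of 0.0075 and Higd1b of 0.39, with adjusted p-values in edgeR of 0.480, 0.986 and 0.443.

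Of 22 other genes of the smooth muscle contractile apparatus, 0 passed, 3 had an unadjusted p under 0.05 and the median log2FC was 0.058. Actn1, α-actinin, had the smallest p (log2FC 0.17, SE 0.055, edgeR adjusted p = 0.116), followed by Tagln2 (log2FC 0.37, SE 0.14, adjusted p = 0.183 in edgeR), a transgelin of non-muscle cells. The most abundant, Myl6 and Cnn3, had log2FC values of 0.064 and 0.017. The transcription factor Srf and its co-activators, which drive contractile genes, had 0 of 4 called in edgeR, also without adjustment. Srf had a log2FC of −0.050, Mkl1 of 0.0073 and Mkl2 of 0.040.

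On the PDGF axis, 0 of 6 ligands and other receptors passed in edgeR, and 1 had an unadjusted p under 0.05. Pdgfb, the ligand of the pericyte receptor, had 6.57 FPKM in EAE mice and 5.44 FPKM in PBS-treated mice (log2FC 0.22, SE 0.095, edgeR adjusted p = 0.224). Pdgfra, which marks oligodendrocyte precursors and fibroblasts, had a log2FC of −0.14, and Pdgfa of −0.034. Of 21 genes of angiopoietin, TGF-β and Notch signalling between pericytes and endothelium, 0 passed and 4 had an unadjusted p under 0.05. These included Tgfb2 (log2FC −0.19, adjusted p = 0.152 in edgeR), Heyl, a Notch target (−0.25, adjusted p = 0.187 in edgeR), and S1pr1 (−0.22, adjusted p = 0.206 in edgeR). Notch1, abundant at 14.5 and 15.0 FPKM, had a log2FC of −0.095.

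The KATP channel pairs a sulfonylurea receptor such as Abcc9 with a pore subunit. Of its other 3 subunits 0 passed in edgeR, and 1 had an unadjusted p under 0.05. Abcc8, the neuronal and endocrine receptor, had a log2FC of 0.15 (adjusted p = 0.234 in edgeR), Kcnj11 of −0.096 and Kcnj8, the vascular pore subunit that partners Abcc9, of −0.16 (SE 0.20, edgeR adjusted p = 0.740). Of 9 relatives of Rgs5, 8 were tested and 0 passed in edgeR, also without adjustment, with log2FC values of 0.073 for Rgs8, 0.046 for Rgs4 and 0.59 (SE 0.57) for the barely expressed Rgs13.

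Beside Des, 5 intermediate filament genes were listed, of which 2 rose. Nes, nestin, had 2.44 and 1.496 FPKM in EAE and PBS-treated mice (log2FC 0.65, SE 0.16, edgeR adjusted p = 0.0333). Gfap, the filament of astrocytes, had 144 and 98.1 FPKM (log2FC 0.50, SE 0.12, edgeR adjusted p = 0.0312). Vim, vimentin, missed the threshold (log2FC 0.48, SE 0.13, adjusted p = 0.0583 in edgeR), and Synm and Prph had log2FC values of 0.029 and 0.27. Within the 6 libraries most alike, Nes was called and Gfap and Vim were not, where 24.1% of all mRNAs passed. Within the other 5 libraries of each group, Gfap and Vim were called and Nes was not, where 0.0745% passed. Gfap and Nes are also expressed by astrocytes, of whose 8 markers Gfap was the only one called and 7 had estimates below 0.

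Beside Anpep, 6 other membrane peptidases gave 1 that rose. Dpp4 had 1.83 FPKM in EAE mice and 1.44 FPKM in PBS-treated mice (log2FC 0.29, SE 0.073, edgeR adjusted p = 0.0356). Its exact permutation p on FPKM, which carries no TMM scaling, was 0.000155, the smallest that 8 against 8 mice allow. In that test 16.9% of all mRNAs had an unadjusted p under 0.05. After adjustment over 19671 mRNAs 0 passed, so Dpp4 did not pass either. Ace (log2FC −0.27, adjusted p = 0.0775), Mme (−0.26, adjusted p = 0.209) and Lnpep (−0.072, adjusted p = 0.421) did not pass in edgeR.

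Vitronectin binds αv integrins on cells and takes part in the control of fibrinolysis. Of 9 genes of integrin subunits and fibrinolysis 1 rose, Itga8, an integrin subunit found on smooth muscle, with 6.01 and 4.78 FPKM (log2FC 0.28, SE 0.072, edgeR adjusted p = 0.0414). Plau, urokinase, had a log2FC of 0.72 (SE 0.23, adjusted p = 0.102 in edgeR), whereas the αv subunit gene Itgav and Itgb8 had −0.17 each (adjusted p = 0.193 and 0.291 in edgeR).

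**Figure D5:**
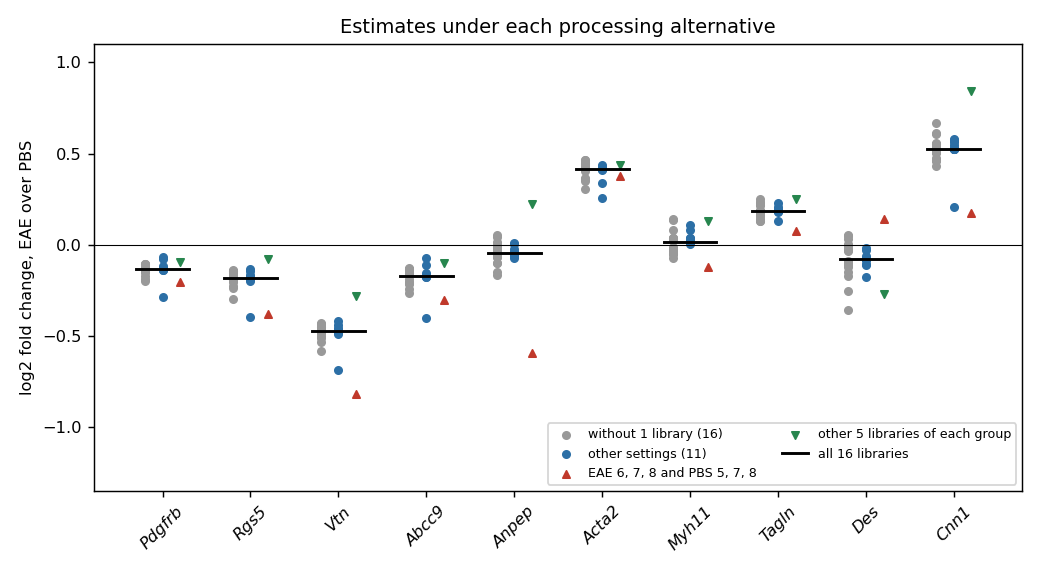
log2 fold change of EAE over PBS (vertical axis) of each of the 10 mRNAs under all alternatives, with the estimate over all 16 libraries as a black line. Vtn stays below 0 in each of them, from −0.82 to −0.28, while Anpep, Des and Myh11 fall on both sides of 0.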

How the data were processed

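The authors aligned filtered paired-end reads of stranded, ribosomal RNA-depleted libraries to GRCm38 with HISAT2 2.1.0 and counted them with HTSeq 0.11.2, per the labels' processing notes. Raw counts per gene symbol were deposited by the authors for 21878 mRNAs. The deposited FPKM values follow from these counts, each scaled by the sum of its library and by gene length. Groups were taken from the sample titles, and 0 columns were left unused. Counts were tested with edgeR 4.0.16 (TMM, quasi-likelihood, condition as the only term, a total of at least 16 counts, Benjamini-Hochberg over all mRNAs tested). SE is |log2FC| divided by the square root of F. The fit was tested on simulated data. FPKM values were tested by exact permutation over 12870 divisions, and correlations by 100000 permutations within groups. FPKM carries no TMM scaling, and TMM factors were 1.00–1.03 in EAE and 0.960–0.997 in PBS libraries. FPKM comparisons therefore lean higher in EAE mice than edgeR does. The median log2FC over all mRNAs was 0.054 with limma on log2(FPKM + 0.1) and 0.0092 in edgeR. Alternatives used DESeq2 1.42.0 and limma 3.58.1 (pseudocounts of 0.1 and 1). The 10 members and all lists were chosen with earlier results of these data known. Besides the members, each list's called genes, its 2 smallest p-values and its 2 most abundant genes are named, and other names were chosen after their values were seen. 1 gene that this rule names is not reported here. Positions and transcripts are from GENCODE M21.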

Additional observations from a re-analysis of the deposited data

Results flagged for a closer look

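Rgs5 in EAE 5, at 15.7 FPKM, stood apart from the other EAE libraries, with a gap to the next library (11.4 FPKM) of 0.546 of the group's range, above Dixon's critical value for 8 samples. It was the only value to do so among 20 groups of 8, where chance flags about 1 in 20 groups. Vtn in EAE 4 fell just short of the critical value, at 23.1 FPKM with the next EAE library at 17.1 FPKM and the lowest at 11.6 FPKM. In EAE 5 the 12 endothelial markers summed to 92.7 FPKM and the 4 erythroid markers to 796 FPKM, the highest of all libraries in both cases. The astrocyte and oligodendrocyte sums were also highest in EAE 5 (1335 and 1280 FPKM), and the neuronal sum was lowest there (1049 FPKM). The part of these cell types in the Rgs5 value was not tested.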

How the results depend on the processing

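Of the 10 mRNAs, 1 had an adjusted p under 0.05 with all libraries. The number was 0 with upper-quartile factors, with robust estimation, with limma on log2(FPKM + 0.1) or log2(FPKM + 1) and within the 5 other libraries of each group, 3 within EAE 6, 7, 8 and PBS 5, 7, 8, and 4 without EAE 4, EAE 5 and PBS 4. Leaving out 1 library gave 0 to 1. Of the further genes, 5 passed with all libraries, 8 with DESeq2, 1 with limma on log2(FPKM + 0.1), 27 and 2 within these sets of libraries, and 18 without EAE 4, EAE 5 and PBS 4. Leaving out 1 library gave 0 to 10, with 0 without EAE 1, EAE 2, EAE 8 or PBS 3 and 10 without EAE 4. The cause was not tested. The count of DEmRNAs among the 10 was 0 in all 29 settings. The log2FC of Anpep turned to 0.0075 and 0.0038 with limma at pseudocounts of 0.1 and 1 and to 0.22 within the 5 other libraries of each group, that of Des to 0.14 and that of Myh11 to −0.12 within the 6 libraries most alike. Leaving out 1 library gave −0.17 to 0.056 for Anpep, −0.36 to 0.053 for Des and −0.074 to 0.14 for Myh11. With the replicate number as a block, 1 of the 10 and 6 further genes passed. Same-numbered mice correlated at −0.26 to 0.61 over 8 pairs. The signs were mixed, so these values cannot decide whether the numbers pair mice, and the labels do not say.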

Other observations

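Muscle and connective tissue markers were read beside the contractile mRNAs. The 11 skeletal and cardiac muscle markers summed to 7.82–10.4 FPKM in EAE mice and 6.58–8.80 FPKM in PBS-treated mice, with 0 of 11 called in edgeR, 1 passing an unadjusted p of 0.05, and a median log2FC of 0.46. Tnnt2, cardiac troponin T, made up 3.15 and 2.21 FPKM of these sums and had a log2FC of 0.46 (SE 0.17, edgeR adjusted p = 0.148). The 11 fibroblast markers summed to 45.9–69.6 FPKM and 47.7–54.8 FPKM, with 0 of 11 called and 2 passing without adjustment, and the 8 oligodendrocyte markers to 912–1280 FPKM and 1002–1231 FPKM, with 0 of 8 called and 2 passing without adjustment. The 4 erythroid markers ranged from 108 to 796 FPKM in EAE mice and from 166 to 481 FPKM in PBS-treated mice, with 0 of 4 called and 0 passing without adjustment.

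Of the 6 choroid plexus markers, Ttr was called, at 80.0 FPKM in EAE mice and 142 FPKM in PBS-treated mice (log2FC −0.88, SE 0.18, edgeR adjusted p = 0.0163), while Kl (log2FC −0.49, SE 0.13, edgeR adjusted p = 0.0571), Clic6 (−0.18), Folr1 (−0.16), Otx2 (0.24) and Kcne2 (0.28) did not pass. No marker of any list was at 0 in all libraries.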
